A study of Rattus norvegicus with 8 samples.

Results

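Genes annotated to DNA replication or to binding of single-stranded DNA were examined in RNA-seq libraries of cells from the rat nucleus pulposus, the soft centre of the intervertebral disc. Members were chosen by gene ontology (GO), from genes with a term containing "DNA replication" or the term "single-stranded DNA binding". Of 73 such genes, 72 remained under a rule that leaves out mitochondrially encoded genes, Hmgb2 and Cdkn1a. E2f1, Tyms and Pclaf, which carried no such term in the table, were added by name. This gave 75 of the 4226 genes in the deposited table, of which 72 were protein-coding and 3 were long noncoding RNAs. A replication term was carried by 58 members, the single-stranded DNA binding term by 24 and both by 10.

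SOD1, a superoxide dismutase of the cytosol, had first been knocked down in all 8 samples. The cells were then transfected with SOD1 carrying the K123R substitution, a lysine replaced by arginine (SOD1-K123R, 4 libraries), or with wild-type SOD1 (SOD1-WT, 4 libraries). Lactate at 10 mM was given to both groups over 7 days, and the question put is what the substitution does to expression in its presence. The table heads the SOD1-K123R columns L and the SOD1-WT columns Ctrl, letters that the labels do not expand, and Sod1 itself was not analysed here. A difference in the level of SOD1 between the groups therefore cannot be told apart from the substitution, nor could lactate be if the headings marked its presence and absence. Library identifiers run in a separate block for each group, so handling by block and group cannot be told apart. Separate cultures are not mentioned for the replicates, so the p-values cover the spread between these libraries alone, which may be technical.

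A cell licenses its replication origins in G1 by loading the ring-shaped MCM helicase with the origin recognition complex and Cdc6. On entry into S phase the helicase is switched on by Cdc45 and GINS, primase and the replicative polymerases copy the strands, the sliding clamp PCNA tethers the polymerases, and replication protein A coats exposed single strands. Many of these genes are known targets of the E2F transcription factors, which act at the passage from G1 to S phase. Adult disc cells are known to divide little in the tissue and to divide again in culture.

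The promoters of the members were read first for short words of sequence. RefSeq promoter sequences of the GRCr8 assembly (250 bases before to 50 after the annotated start) were matched by symbol for 55 members. An E2F-type word, defined as TTCCCGC or as TTGGCGC on either strand, stood in 20 of the 43 promoters (46.5%) of members that were lower in SOD1-K123R. It stood in 1 of the 9 promoters (11.1%) of members that were higher. Among the other genes tested, it was in 159 of 1053 promoters of genes that were lower (15.1%) and in 96 of 925 promoters of genes that were higher (10.4%). Over all 27457 promoters it was in 1832 (6.67%). The CCAAT box (the word CCAAT on either strand) was in 24 of the 43 promoters of lower members (55.8%) and in 33.3% of those of higher members. It was in 38.5% of promoters of other tested genes that were lower, 36.8% of those that were higher and 37.7% of all promoters. The CHR-type word TTTGAA was in 7 of those 43 (16.3%) and in 11.1% of promoters of higher members. Among other tested genes it was in 15.0% of promoters of lower genes and 8.76% of those of higher genes, against 18.1% of all promoters. Of 32 E2F-type words in members' promoters, 21 lay between 100 bases before and 50 bases after the start. In 2 promoters, those of Mcm7 and Prim1, an E2F-type word overlapped a CCAAT box. A match of letters is a description of the sequence and not a sign of binding, and no match says only that these letters are not in the window. Many replication genes are known E2F targets, so the share of E2F-type words is not independent of the rule that chose the members. Members that fell and members that rose also differ largely in role, so direction and role cannot be told apart in these shares.

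The 150 bases upstream of the start are shown for 4 members that fell, chosen as a clamp-associated factor, a helicase subunit, a helicase activator and a nucleotide enzyme with an E2F-type word, and for E4f1, a member that rose and had none. E2F-type words are in capitals. The Pclaf window is chr8:75315567-75315716 on the plus strand, that of Mcm7 chr12:22163179-22163328 on the minus strand, that of Gins1 chr3:160184770-160184919 on the plus strand, that of Tyms chr9:120776084-120776233 on the minus strand and that of E4f1 chr10:13990507-13990656 on the minus strand (GRCr8).
Pclaf: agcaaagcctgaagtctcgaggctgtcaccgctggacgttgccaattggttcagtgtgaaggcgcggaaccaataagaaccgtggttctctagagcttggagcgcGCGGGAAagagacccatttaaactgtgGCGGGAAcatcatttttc
Mcm7: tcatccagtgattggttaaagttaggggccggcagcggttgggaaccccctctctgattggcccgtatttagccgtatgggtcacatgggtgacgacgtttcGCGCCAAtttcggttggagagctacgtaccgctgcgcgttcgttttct
Gins1: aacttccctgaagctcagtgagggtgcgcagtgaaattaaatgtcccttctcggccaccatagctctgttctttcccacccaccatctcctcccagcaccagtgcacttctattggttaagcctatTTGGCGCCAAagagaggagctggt
Tyms: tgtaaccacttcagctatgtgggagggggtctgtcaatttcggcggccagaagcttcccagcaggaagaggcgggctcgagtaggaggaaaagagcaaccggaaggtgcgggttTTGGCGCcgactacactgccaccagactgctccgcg
E4f1: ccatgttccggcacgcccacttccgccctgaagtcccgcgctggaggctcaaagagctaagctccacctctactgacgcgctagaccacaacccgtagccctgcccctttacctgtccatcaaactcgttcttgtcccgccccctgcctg
In Pclaf the word stands as 2 copies within the window, in Gins1 as 2 copies that overlap each other on opposite strands, and in Mcm7 and Tyms as 1 copy.

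**Figure D1:**
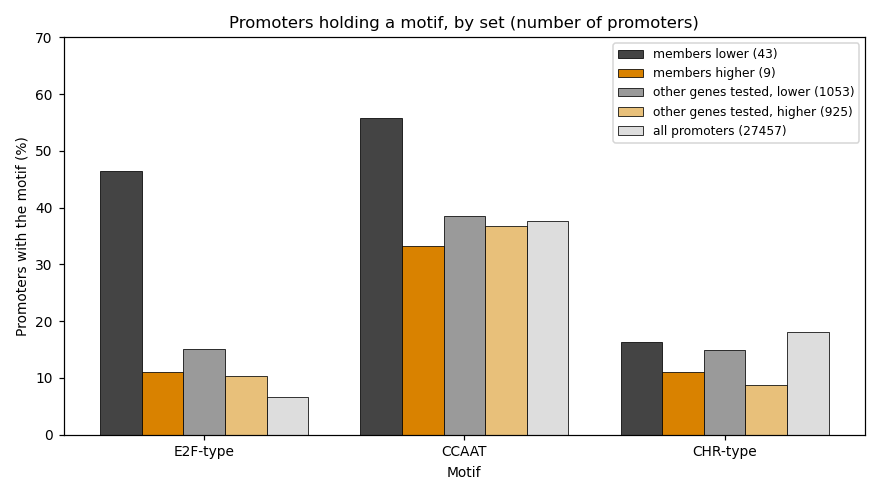
Share of promoters (%, vertical axis) that hold each of 3 motifs (horizontal axis), for members lower or higher in SOD1-K123R, other tested genes lower or higher, and all promoters, with the number of promoters in the legend. The E2F-type word is in 46.5% of promoters of lower members, 15.1% of those of other tested genes that were lower and 6.67% of all promoters.

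Levels are given as TPM, the authors' measure of transcript abundance per gene, which corrects for transcript length so that levels of different genes can be compared. The rows analysed are part of the transcriptome, since they summed to between 235371 and 243393 TPM in SOD1-K123R and between 187515 and 198656 TPM in SOD1-WT. Depth is unknown, because TPM keep no read counts. The test was limma on log2(TPM + 1) for genes that averaged 1 TPM or more, with 0.05 as the threshold for the p adjusted by Benjamini-Hochberg. Of 2890 genes tested, 95.7% passed, 44.6% as higher and 51.1% as lower in SOD1-K123R. The sources used here do not say how the rows were selected. With 95.7% passing, a pass or a lack of overlap hardly sets a gene apart from the other rows. Whether rows had been selected for a difference was not tested, and genes that did not change may be missing from them. Of 13 nucleus pulposus markers, 6 were tested, 3 higher and 3 lower. Cd24, Car12 and Sox9 averaged 31.2, 3.27 and 3.19 TPM in SOD1-K123R, against 10.1, 0.778 and 0.4 TPM in SOD1-WT. Car3 and Cdh2 averaged 0.892 and 2.96 TPM in SOD1-K123R, against 5.28 and 9.43 TPM in SOD1-WT. Col2a1, which was not tested, lay at 0.02 to 0.08 TPM in SOD1-K123R and at 0 in SOD1-WT. Acan averaged 0.645 TPM in SOD1-K123R and 1.54 TPM in SOD1-WT, while Tbxt, Krt8, Krt18 and Krt19 were not analysed here, so the cell type rests on the labels.

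Of the 75 members, 68 were tested, 58 fell, 9 rose and 1 did not pass. Members that fell made up 85.3% of those tested, against 51.1% of all genes tested, and members that rose made up 13.2%, against 44.6%. A fall of at least 2-fold was found for 45 members (66.2%), against 35.8% of all genes tested. The median log2 fold change was -1.14 over the members tested and -0.49 over all genes tested. The median of all genes depended on the filter and on SOD1-WT replicate 3. At a mean of at least 5 TPM the members' median was -1.28 and that of all genes 0.27. With no filter the members' median was -1.12 and that of all genes -0.14, and without SOD1-WT replicate 3 the members' was -1.16 and that of all genes -0.30. SOD1-K123R and SOD1-WT values did not overlap for 55 of the members that fell (80.9% of those tested, against 48.8% of all genes) and for the 9 that rose (13.2%, against 42.6%). Together these were 94.1% of the members tested, against 91.4% of all genes tested. The 7 members below 1 TPM were not tested, and the members that passed this filter are not all members. Without the 3 members added by name, 55 of 65 fell and 9 rose.

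**Figure D2:**
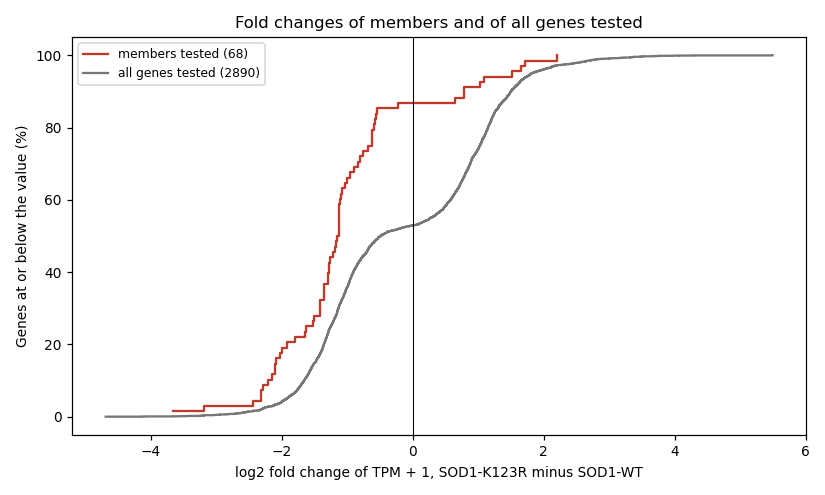
Share of genes (%, vertical axis) at or below each log2 fold change of TPM + 1, SOD1-K123R minus SOD1-WT (horizontal axis), for the 68 members tested and all 2890 genes tested. The members' curve lies left of that of all genes, with medians of -1.14 and -0.49.

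The direction differed between role groups. In 7 role groups that hold the replication machinery, nucleotide supply and the regulators of S-phase entry, 39 of 40 members fell and 1, Sde2, rose. In the remaining roles 19 of 28 tested members fell, 8 rose and 1 did not pass. Of all genes tested, 51.1% fell, 44.6% rose and 91.4% had groups that did not overlap. These shares stand beside every count by role below. In bulk RNA, fewer cells in S phase and less RNA of these genes per cell cannot be told apart. Roles were assigned from textbook knowledge after the values had been seen, so this division is a description.

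**Figure D3:**
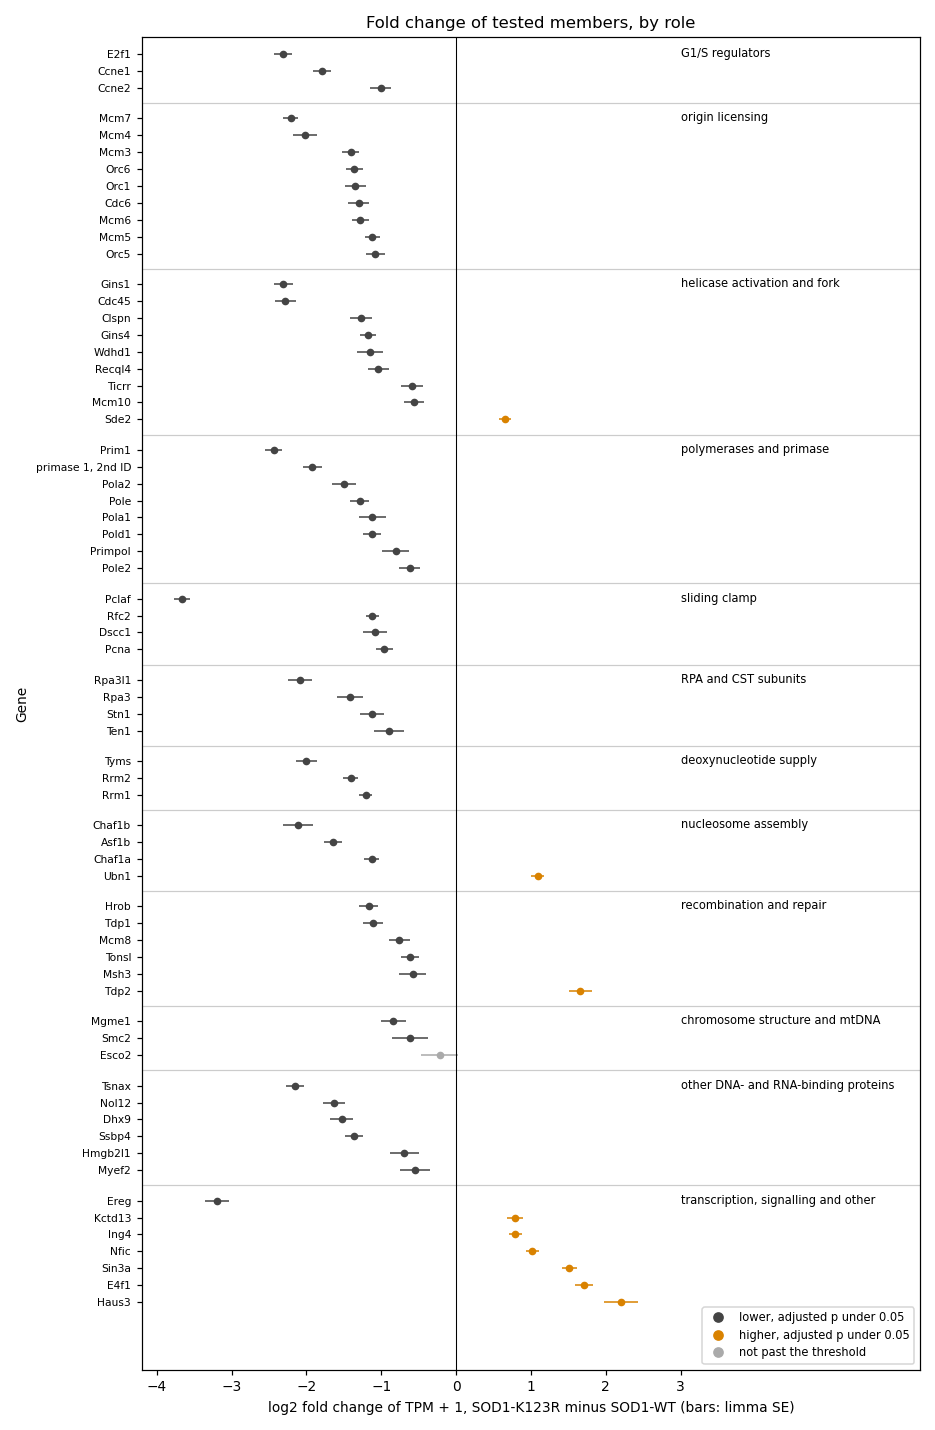
log2 fold change of TPM + 1, SOD1-K123R minus SOD1-WT, for 66 of the 68 members tested (horizontal axis; bars are limma standard errors), with genes down the page by role and coloured by call. Of the members in the 7 upper groups, 39 lie left of 0 and Sde2 lies at 0.65.

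At the passage from G1 to S phase, E2f1, the transcription factor that drives many replication genes, fell. It measured 4.05, 3.74, 3.56 and 4.82 TPM in the SOD1-K123R libraries, against 27.1, 21.7, 22.1 and 25.2 TPM in the SOD1-WT libraries. Every SOD1-K123R library was below every SOD1-WT library (log2 fold change -2.31, SE 0.12, limma adjusted p = 3.53e-09). The symbol of this gene rests on a prediction by Ensembl, per the file's annotation. Ccne1, which encodes cyclin E1, a partner of the S-phase kinase CDK2, measured 4.53, 3.40, 3.50 and 4.75 TPM in SOD1-K123R, against 18.4, 15.1, 15.6 and 16.6 TPM in SOD1-WT. Its fall (log2 fold change -1.79) was larger than that of its paralogue Ccne2, which averaged 4.57 ± 0.401 TPM in SOD1-K123R and 10.3 ± 2.15 TPM in SOD1-WT (SD, n = 4 each; log2 fold change -1.01), although the difference between the paralogues was not tested.

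All 9 members of origin licensing fell, by log2 fold changes of -2.21 to -1.08. Their summed level was 114.9 ± 11.3 TPM in SOD1-K123R and 325.3 ± 19.2 TPM in SOD1-WT (SD, n = 4 each), or 35.3% of the SOD1-WT level. Orc1, a subunit of the origin recognition complex, measured 1.19, 1.30, 1.09 and 1.07 TPM in SOD1-K123R, against 4.45, 3.43, 4.59 and 5.88 TPM in SOD1-WT. Orc5 and Orc6, further subunits, had log2 fold changes of -1.08 and -1.36, and Cdc6, which helps to load the helicase, of -1.30. The groups did not overlap for any of these genes.

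The MCM helicase is a ring of different subunits, of which Mcm3 to Mcm7 were among the rows. Mcm6 was the most abundant in each group, with 54.7, 49.6, 37.4 and 45.5 TPM in SOD1-K123R, against 104.7, 110.4, 127.3 and 115.7 TPM in SOD1-WT. Mcm7 measured 9.82, 10.3, 8.78 and 10.8 TPM in SOD1-K123R, against 52.7, 44.1, 52.5 and 48.5 TPM in SOD1-WT. Mcm5 measured 18.9, 19.4, 18.9 and 23.7 TPM in SOD1-K123R, against 49.5, 42.1, 42.7 and 45.7 TPM in SOD1-WT. All 3 fell with no overlap of the groups, and Mcm7 was below Mcm5 in every SOD1-K123R library and above it in every SOD1-WT library. The levels in SOD1-K123R ran Mcm6, Mcm5, Mcm3 (15.3 ± 1.81 TPM), Mcm7, Mcm4 (6.46 ± 1.07 TPM), and the ranges of neighbours did not overlap. In SOD1-WT they ran Mcm6, Mcm7, Mcm5, Mcm3 (42.2 ± 3.75 TPM), Mcm4 (29.7 ± 6.95 TPM; SD, n = 4 each), and the ranges of all neighbours after Mcm6 overlapped.

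The balance between subunits was followed by the ratio of 2 subunits within a library, which no scaling of that library can alter. Over 8 complexes, 21 pairs were compared with an exact two-sided permutation test on log2 ratios, an analysis added after the values had been seen. With 4 libraries against 4 the smallest p is 0.0286, and after Benjamini-Hochberg adjustment over the 21 pairs no pair passed 0.05. The ratios of the groups did not overlap for 11 pairs, each at that smallest p (adjusted p = 0.0545, exact permutation). Because of that floor, no pair could pass unless most pairs reached it. Many pairs share a subunit, so they are not independent. Ratios of other gene pairs were not compared, so how common such a lack of overlap is among them is unknown. Mcm5/Mcm7 was 1.92, 1.88, 2.15 and 2.19 in SOD1-K123R, against 0.939, 0.954, 0.813 and 0.943 in SOD1-WT. Mcm6/Mcm7 was 5.57, 4.82, 4.26 and 4.20 in SOD1-K123R, against 1.99, 2.50, 2.42 and 2.39 in SOD1-WT. Both ratios were higher in every SOD1-K123R library than in any SOD1-WT library, whereas Mcm4/Mcm7 overlapped, at 0.535 to 0.784 in SOD1-K123R and 0.407 to 0.733 in SOD1-WT. Mcm5/Mcm6 also overlapped, at 0.345 to 0.522 in SOD1-K123R and 0.335 to 0.473 in SOD1-WT.

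**Figure D4:**
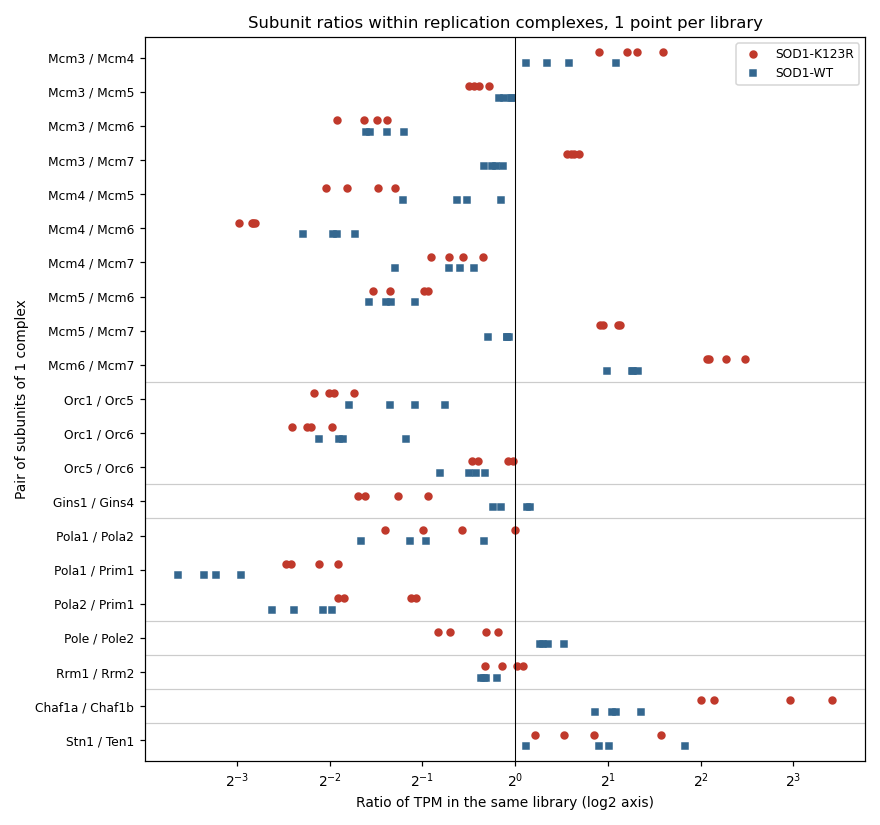
Ratio of the TPM of 2 subunits of the same complex (horizontal axis, log2 scale), 1 point per library, for the 21 pairs down the page. In 11 pairs the points of SOD1-K123R and SOD1-WT do not overlap, such as Mcm5/Mcm7 at 1.88 to 2.19 in SOD1-K123R and 0.813 to 0.954 in SOD1-WT.

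Among the activators of the helicase and the proteins of the fork, 8 of 9 members fell. Cdc45, which joins the MCM ring to form the active helicase, measured 2.11, 3.05, 1.60 and 2.36 TPM in SOD1-K123R, against 14.7, 14.3, 14.2 and 15.8 TPM in SOD1-WT (log2 fold change -2.28, SE 0.14, limma adjusted p = 1.27e-08). Gins1, a subunit of the GINS complex of the same helicase, measured 3.57, 2.63, 3.80 and 3.13 TPM in SOD1-K123R, against 18.6, 17.3, 22.8 and 22.3 TPM in SOD1-WT. Its partner Gins4 measured 8.60, 8.08, 7.29 and 10.2 TPM in SOD1-K123R, against 21.8, 19.3, 20.4 and 20.4 TPM in SOD1-WT. The pair stood at similar levels in SOD1-WT, and Gins1 was the lower in every SOD1-K123R library, with Gins1/Gins4 at 0.308 to 0.521 in SOD1-K123R and 0.850 to 1.12 in SOD1-WT.

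Falls also came from Clspn, a mediator of the replication checkpoint (log2 fold change -1.27), Wdhd1, a fork protein that binds polymerase alpha (-1.15), and Recql4, a helicase of replication initiation (-1.04). Ticrr, a factor of origin firing, fell by 0.59 and Mcm10, a further initiation factor, by 0.56. The call for Mcm10 ended under median-of-ratios scaling (limma adjusted p = 0.278) and under quantile normalization (0.0728). Sde2, which protects stalled forks, was the 1 member of these groups that rose, with 46.1, 46.8, 48.6 and 47.3 TPM in SOD1-K123R, against 29.8, 31.7, 29.5 and 28.0 TPM in SOD1-WT (log2 fold change 0.65, SE 0.08, limma adjusted p = 4.75e-06). Its groups did not overlap.

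**Figure D5:**
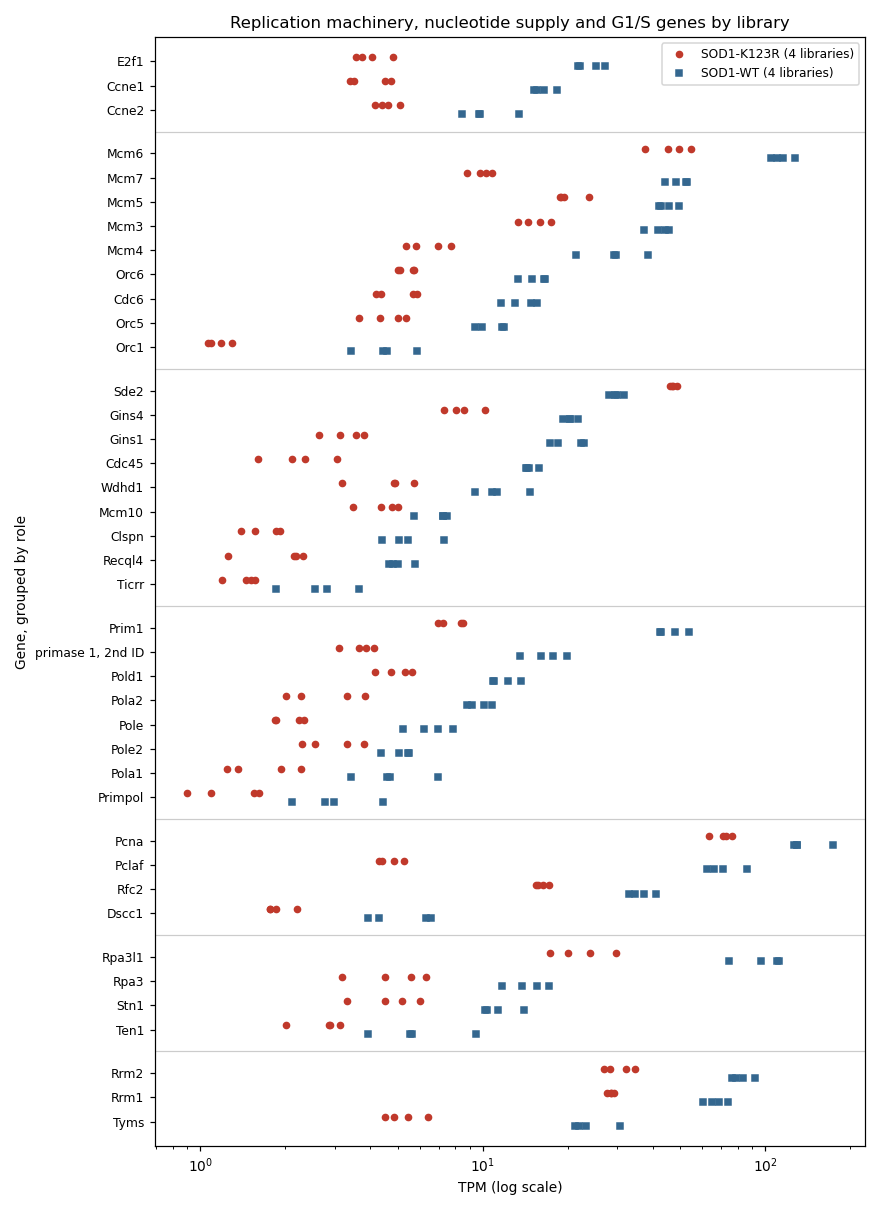
TPM (horizontal axis, log scale) of the 40 members of the machinery, nucleotide supply and G1/S groups in each library, with SOD1-K123R as circles above SOD1-WT as squares. The groups do not overlap for any of the 40, nor for 91.4% of all genes tested. Sde2 alone lies to the right in SOD1-K123R, at 46.1 to 48.6 TPM against 28.0 to 31.7 TPM in SOD1-WT.

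All 8 polymerase and primase genes fell, to a summed 27.3 ± 2.27 TPM in SOD1-K123R, against 104.9 ± 6.67 TPM in SOD1-WT (SD, n = 4 each). Prim1, the catalytic subunit of primase, measured 8.52, 8.36, 7.27 and 6.94 TPM in SOD1-K123R, against 42.6, 47.9, 53.7 and 42.8 TPM in SOD1-WT (log2 fold change -2.44, SE 0.11, limma adjusted p = 1.15e-09). A further gene identifier without a symbol, ENSRNOG00000086012, which the file describes as DNA primase subunit 1, measured 3.88, 3.10, 4.13 and 3.64 TPM in SOD1-K123R, against 17.8, 13.5, 16.1 and 19.9 TPM in SOD1-WT. Reads may have been split between the 2 identifiers, so the level of each is uncertain, but the groups overlapped for neither. Pola1 and Pola2, the polymerase alpha subunits that work with primase, fell by log2 fold changes of -1.12 and -1.50. Pola1/Prim1 was 0.180 to 0.266 in SOD1-K123R and 0.0803 to 0.129 in SOD1-WT, ranges that did not overlap.

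Pold1 and Pole, the catalytic subunits of polymerases delta and epsilon, fell by log2 fold changes of -1.12 and -1.29. Pole2, the second subunit of polymerase epsilon, fell by 0.62, a call that ended under median-of-ratios scaling (limma adjusted p = 0.0829). Pole/Pole2 was 0.560 to 0.878 in SOD1-K123R and 1.20 to 1.44 in SOD1-WT. Primpol, which restarts stalled synthesis in the nucleus and in mitochondria, lay at 0.90 to 1.62 TPM in SOD1-K123R and 2.11 to 4.44 TPM in SOD1-WT, near the filter of 1 TPM.

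The sliding clamp itself was the most abundant member of the machinery in SOD1-K123R and in SOD1-WT. Pcna measured 71.0, 76.4, 72.4 and 63.5 TPM in SOD1-K123R, against 129.9, 126.8, 173.7 and 130.0 TPM in SOD1-WT (log2 fold change -0.96, SE 0.11, limma adjusted p = 2.47e-06). Pclaf, a small protein that binds the clamp, measured 4.41, 4.85, 5.27 and 4.31 TPM in SOD1-K123R, against 70.9, 66.1, 86.3 and 62.5 TPM in SOD1-WT. The level of Pclaf in SOD1-K123R was 6.59% of that in SOD1-WT, and that of Pcna 50.6%. Rfc2, a subunit of the clamp loader, kept 44.3% of its SOD1-WT level and Dscc1, a subunit of an alternative loader, 36.0%.

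Of the proteins that hold single strands, Rpa3, the small subunit of replication protein A, measured 3.18, 6.31, 4.52 and 5.59 TPM in SOD1-K123R, against 11.7, 13.8, 17.1 and 15.6 TPM in SOD1-WT. Its near copy Rpa3l1 measured 19.99, 23.9, 17.3 and 29.6 TPM in SOD1-K123R, against 110.5, 96.8, 112.3 and 74.5 TPM in SOD1-WT. Each fell with no overlap of the groups (log2 fold changes -1.42 and -2.08), although reads may have been split between them. Stn1 and Ten1, subunits of the CST complex that binds single strands at telomeres and stalled forks, fell by log2 fold changes of -1.13 and -0.90.

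Nucleotide supply fell in all 3 members. Rrm1, the large subunit of ribonucleotide reductase, measured 28.4, 28.5, 27.6 and 29.2 TPM in SOD1-K123R, against 65.0, 60.3, 74.1 and 68.8 TPM in SOD1-WT. Rrm2, its small subunit in dividing cells, measured 28.1, 27.0, 34.6 and 32.2 TPM in SOD1-K123R, against 83.7, 76.3, 92.0 and 78.6 TPM in SOD1-WT. The 2 subunits kept near the same ratio, with Rrm1/Rrm2 at 0.796 to 1.06 in SOD1-K123R and 0.776 to 0.876 in SOD1-WT, ranges that overlapped. Tyms, which makes thymidylate, measured 5.44, 6.39, 4.5 and 4.84 TPM in SOD1-K123R, against 21.9, 23.2, 30.7 and 21.2 TPM in SOD1-WT, and kept 21.8% of its SOD1-WT level.

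In nucleosome assembly 3 members fell and 1 rose. Chaf1b, a subunit of chromatin assembly factor CAF-1, which deposits histones behind the fork, averaged 1.66 ± 0.804 TPM in SOD1-K123R and 10.2 ± 1.43 TPM in SOD1-WT (SD, n = 4 each). Its partner Chaf1a averaged 9.36 ± 1.08 TPM in SOD1-K123R and 21.5 ± 0.551 TPM in SOD1-WT, and Chaf1a/Chaf1b was 4.00 to 10.7 in SOD1-K123R and 1.82 to 2.56 in SOD1-WT. Asf1b, a histone chaperone that feeds CAF-1, measured 9.28, 10.2, 12.1 and 12.9 TPM in SOD1-K123R, against 40.7, 33.7, 37.3 and 34.3 TPM in SOD1-WT. Ubn1, a subunit of the HIRA complex that assembles nucleosomes outside replication, rose, with 34.3, 32.9, 30.3 and 31.5 TPM in SOD1-K123R, against 13.6, 14.0, 14.9 and 16 TPM in SOD1-WT (log2 fold change 1.09, SE 0.09, limma adjusted p = 1.78e-07). Ubn1 carried the GO term for replication-independent assembly alone, Chaf1a and Chaf1b carried that for replication-dependent assembly, and Asf1b carried both.

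In recombination and repair 7 of 8 tested members fell. Hrob and Mcm8, which act together in recombination, had log2 fold changes of -1.17 and -0.76 with no overlap of the groups. Tdp1 and Tdp2, which free DNA ends from trapped topoisomerases, moved apart. Tdp1, known for topoisomerase I, lay at 2.79 to 4.18 TPM in SOD1-K123R and 7.84 to 9.95 TPM in SOD1-WT. Tdp2, known for topoisomerase II, measured 34.6, 34.9, 27.9 and 26.7 TPM in SOD1-K123R, against 6.86, 9.39, 11.6 and 8.98 TPM in SOD1-WT. It rose with no overlap of the groups (log2 fold change 1.66, SE 0.15, limma adjusted p = 2.85e-07). Tonsl, which binds newly made histones at damaged forks, and Msh3, a mismatch repair protein, fell by 0.62 and 0.58, calls that ended under median-of-ratios scaling (limma adjusted p = 0.0635 and 0.106). The call for Msh3, whose groups overlapped, also ended under quantile normalization (0.103).

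Chromosome structure gave the 1 tested member that did not pass. Esco2, an acetyltransferase that establishes sister chromatid cohesion in S phase, measured 3.32, 3.26, 1.81 and 1.59 TPM in SOD1-K123R, against 1.69, 2.71, 5.37 and 2.83 TPM in SOD1-WT. The groups overlapped (log2 fold change -0.22, SE 0.25, limma adjusted p = 0.410), and its sign turned under both scaling alternatives. Smc2, a core subunit of condensin, measured 10.8, 11.8, 5.84 and 7.61 TPM in SOD1-K123R, against 9.02, 13.9, 21.9 and 13.6 TPM in SOD1-WT, and passed only narrowly (limma adjusted p = 0.0269) with overlapping groups. Without SOD1-WT replicate 3 the adjusted p for Smc2 was 0.0829, without SOD1-K123R replicate 3 it was 0.0985 and without SOD1-K123R replicate 4 it was 0.0644. It was 0.349 under median-of-ratios scaling and 0.0598 under quantile normalization. Mgme1, a nuclease of mitochondrial DNA replication, fell by a log2 fold change of -0.84.

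Among other proteins annotated to bind single strands, all 6 fell. Dhx9, a helicase for RNA and DNA, measured 18.4, 16.2, 14.7 and 12.2 TPM in SOD1-K123R, against 37.3, 46.9, 59.9 and 42.4 TPM in SOD1-WT (log2 fold change -1.53). Tsnax, a partner of the DNA-binding protein translin, kept 21.2% of its SOD1-WT level with no overlap of the groups. Myef2, a transcriptional repressor, measured 30.6, 29.9, 23.9 and 18.3 TPM in SOD1-K123R, against 26.8, 37.6, 55.5 and 34.3 TPM in SOD1-WT, and its groups overlapped. Its call (limma adjusted p = 0.0213) was lost without SOD1-WT replicate 3 (0.0614), without SOD1-K123R replicate 3 (0.0544) without SOD1-K123R replicate 4 (0.0715) and under median-of-ratios scaling (0.636). Ssbp4, a single-stranded DNA binding protein, and Nol12, a nucleolar protein, fell by log2 fold changes of -1.36 and -1.63. Hmgb2l1, a near copy of the excluded Hmgb2 whose reads may be shared with it, fell by 0.69, and the call ended under median-of-ratios scaling (limma adjusted p = 0.146).

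In the group of members with roles in transcription, signalling and other processes, 6 of 7 tested rose. Nfic, a transcription factor first known from viral DNA replication, measured 156.9, 142.2, 139.7 and 156.5 TPM in SOD1-K123R, against 74.2, 70.3, 65.4 and 83.0 TPM in SOD1-WT. Sin3a, the scaffold of a histone deacetylase complex, measured 48.6, 49.1, 42.5 and 46.4 TPM in SOD1-K123R, against 13.7, 15.6, 16.9 and 17.1 TPM in SOD1-WT. E4f1, a transcription factor that binds p53, measured 29.8, 28.3, 33.6 and 27.4 TPM in SOD1-K123R, against 10.2, 6.98, 8.18 and 8.44 TPM in SOD1-WT. None of these 3 overlapped between groups (log2 fold changes 1.02, 1.51 and 1.71, with a highest limma adjusted p of 2.88e-07). Ing4, a chromatin-binding growth inhibitor, and Kctd13, an adaptor of a ubiquitin ligase, each rose by 0.79.

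Haus3 showed the largest rise among the members, with 31.6, 32.4, 22.2 and 17.7 TPM in SOD1-K123R, against 3.35, 3.77, 7.45 and 4.98 TPM in SOD1-WT (log2 fold change 2.20, SE 0.23, limma adjusted p = 1.04e-06). Its symbol is that of an augmin subunit of the mitotic spindle, whereas the table annotates it with DNA polymerase activity. Ereg, the growth factor epiregulin, which is annotated as a positive regulator of DNA replication, went the other way, with 13.2, 12.2, 11.9 and 8.20 TPM in SOD1-K123R, against 85.7, 120.8, 139.1 and 104.1 TPM in SOD1-WT. It kept 10.1% of its SOD1-WT level (log2 fold change -3.19, SE 0.16, limma adjusted p = 3.19e-09), the second largest fall among the members after Pclaf.

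The 7 members below the filter were low in each group. Brca2, a repair protein, lay at 0.16 to 0.72 TPM in SOD1-K123R and 0.61 to 1.51 TPM in SOD1-WT, and Polq, a polymerase of end joining, at 0.22 to 0.39 TPM in SOD1-K123R and 0.49 to 0.92 TPM in SOD1-WT. Pif1, a helicase, lay at 0.48 to 0.93 TPM in SOD1-K123R and 0.69 to 1.06 TPM in SOD1-WT. With no filter on low values Brca2 and Polq also fell. Gli1, a Hedgehog transcription factor, was at most 0.05 TPM in SOD1-K123R and 0.20 TPM in SOD1-WT. The 3 noncoding RNAs lay at 0.04 to 0.98 TPM in SOD1-K123R and 0.03 to 1.37 TPM in SOD1-WT.

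Lists of replication genes that were written by role, with earlier results of these data known, held 131 genes, of which 57 were in the table and 56 were tested. All 56 fell, against 51.1% of all genes tested, but the lists do not hold Sde2, which has a role at the fork and rose. Of the 56, 15 were not members by the annotation. They included Tk1, a thymidine kinase of S phase (22.8, 17.7, 24.6 and 29.7 TPM in SOD1-K123R, against 123.4, 106.1, 123.6 and 119.0 TPM in SOD1-WT). Another was Tfdp1, the dimer partner of the E2F factors (27.9 ± 1.03 TPM in SOD1-K123R and 70.4 ± 3.47 TPM in SOD1-WT, SD, n = 4 each). E2f6, E2f7, E2f8, Rb1 and Ccna2 also fell (log2 fold changes -1.64, -0.93, -1.31, -1.02 and -1.47, in that order). E2f7 and E2f8 averaged 0.625 and 0.985 TPM in SOD1-K123R, against 2.12 and 3.94 TPM in SOD1-WT, so they passed the filter through SOD1-WT. This list does not part regulators that activate E2F targets from those that restrain them. The non-members named here were all named after their values were seen. By list, 9 of 15 genes of origin licensing, 9 of 16 of helicase activation and fork protection, 6 of 12 of the polymerases, 7 of 17 of the clamp and Okazaki fragments, 7 of 12 of nucleotide supply and 9 of 16 of the E2F and cyclin list were tested. From the single-stranded DNA list 3 of 16 were tested, from chromatin assembly 4 of 10, from mitochondrial DNA replication 2 of 8 and from the replication checkpoint 0 of 9. Genes of these lists outside the rows were not analysed here, which says nothing of their level.

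Some marker genes of the nucleus pulposus and of other cells also differed between the groups, in both directions. Of all genes tested, 95.7% differed. The 7 nucleus pulposus markers in the table summed to 32.1 to 49.3 TPM in SOD1-K123R and 24.4 to 29.3 TPM in SOD1-WT. Without Cd24 the sum of the other 6 was lower in SOD1-K123R, at 9.18 to 12 TPM, against 15.8 to 19.9 TPM in SOD1-WT. Within that sum Sox9 and Car12 were higher in SOD1-K123R, while Car3, Cdh2 and Acan were lower. Of 5 markers of annulus and tendon, Scx and Thbs4 were tested and were lower, with a sum of 17 to 21.7 TPM in SOD1-K123R and 34.6 to 55.2 TPM in SOD1-WT. Of 5 macrophage markers 1 was tested, Cd68, at 22.8 to 29.8 TPM in SOD1-K123R and 5.44 to 7.94 TPM in SOD1-WT, and the endothelial marker Pecam1 was at most 0.46 TPM in any library. Of 4 bone markers, Runx2 was higher and Ibsp lower, with a sum of 12.1 to 17 TPM in SOD1-K123R and 11.7 to 15.9 TPM in SOD1-WT. Their part in the falls of the replication genes was not tested.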

How the data were processed

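RNA-seq libraries of 8 rat nucleus pulposus cell samples were analysed, 4 per group by their titles and genotype labels. Per the labels' protocols, total RNA was isolated with TRIzol and read in pairs on an Illumina NovaSeq. The authors deposited 1 table of TPM per gene, with RSEM given in its name, and DESeq2 is named without a role per the submitters' processing notes. Aligner, genome build and annotation release were not given in the sources used here.

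Members were taken from the GO columns. Genes averaging 1 TPM or more were fitted as log2(TPM + 1) with limma 3.58.1 in R 4.3.3 (eBayes with trend, two-sided, Benjamini-Hochberg over all genes tested), a fit checked on simulated data. Most genes in the simulation were unchanged, unlike in these rows, so the check does not cover a setting where most genes differ. Fold changes on this scale understate changes of low genes. Alternatives were a pseudocount of 0.1, no filter, a mean of at least 5 TPM, median-of-ratios scaling, quantile normalization, a replicate block, no trend and leaving out each library. Members, lists and motifs were chosen with earlier results of these data known; roles and subunit pairs were set after the values had been seen. Values in every library are given for the 6 largest falls and rises, the 2 most abundant members of each role, E2f1, Tyms, Pclaf and members that did not pass, with further members added for their role. Results of some single genes are left out of the text.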

Additional observations from a re-analysis of the deposited data

Results flagged for a closer look

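Within groups of 4, Dixon's 95% criterion set a library apart from the other 3 in 5 of 136 groups of members' values, where chance does so in about 1 in 20. For Mcm5, SOD1-K123R replicate 4 stood apart at 23.7 TPM, with its group otherwise at 18.9 to 19.4 TPM. For Recql4, SOD1-K123R replicate 3 was low at 1.26 TPM, with the others at 2.15 to 2.32 TPM. For Msh3, SOD1-K123R replicate 1 was high at 2.13 TPM, with the others at 0.8 to 0.9 TPM. For Mcm10, SOD1-WT replicate 2 was low at 5.71 TPM, with the others at 7.26 to 7.5 TPM. For Pcna, SOD1-WT replicate 3 was high at 173.7 TPM, with the others at 126.8 to 130.0 TPM.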

How the results depend on the processing

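The 9 members that rose did so under every processing alternative and without each library. The count of members that fell was 58, and 51 to 60 under the processing alternatives other than the filter at 5 TPM (42 of 51 tested). The same genes were concerned: 51 of the 58 under median-of-ratios scaling, 55 under quantile normalization and 56 to 58 when a library was left out. Median-of-ratios scaling shifted the typical log2 fold change by 0.42, to a median of -0.73 over the members and -0.14 over all genes. With only members whose term equals DNA replication, 16 of 22 tested fell and 6 rose. Over all genes, 897 fell and 948 rose of 1896 tested at a mean of at least 5 TPM, against 1476 and 1289 of 2890, and the median turned to 0.27. Esco2 turned to 0.13 under median-of-ratios scaling, 0.10 under quantile normalization and 0.01 without SOD1-WT replicate 3 (lowest -0.40, without SOD1-WT replicate 1). Among ratios, Mcm4/Mcm7 turned to -0.05 without SOD1-WT replicate 1 (highest 0.23), Orc1/Orc6 to 0.0 with log2(TPM + 1), and Stn1/Ten1 to 0.02 without SOD1-K123R replicate 2 and 0.12 without SOD1-WT replicate 1 (lowest -0.46); the cause was not tested. Leaving out a library allows no exact p below 0.0571. Same-numbered libraries did not deviate together (correlations -0.35, 0.016, -0.204 and 0.0536), nor did every library correlate best with its own number. No pairing by number was seen, although such correlations over 4 libraries per group cannot exclude one. With a replicate block 57 members fell and 9 rose, Smc2 being lost (limma adjusted p = 0.0589). Without members that have near copies, chosen after seeing the data, 53 fell and 9 rose. Unknown depth limits the members near 1 TPM.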

Other observations

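Members also varied within groups. SOD1-WT replicate 3 lay above its group mean for 47 of 68 tested members (median deviation 0.11 on the log2 scale, against 0.04 over all genes tested). SOD1-K123R replicate 3 lay above its group mean for 14 of 68 (median deviation -0.12, against -0.08 over all genes tested), and SOD1-WT replicate 2 for 14 of 68 (-0.07, against -0.01). Smc2, Esco2, Myef2 and Haus3, picked after their values were seen, were each higher in SOD1-K123R replicates 1 and 2 than in replicates 3 and 4. Other members, such as Tdp2, Mcm6, Dhx9 and Prim1, showed the same order, while Rrm2 showed the reverse. The members and other genes with this order were not counted, so it is not a trait of the genes named.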
